A study of Mus musculus with 4 samples.

Results

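The genes described here are 28 genes of cholesterol synthesis, sterol sensing, and sterol transport, uptake and efflux, taken by symbol from the 16051 genes of a deposited expression table. The list was grouped by pathway role and chosen with earlier results of these data known, and all 28 symbols were found in the table. Differentiated 3T3-L1 cells, a line derived from mouse NIH Swiss embryonic fibroblasts and used as a culture model of fat cell formation, were treated for 48 h with DMSO, the drug's vehicle, or with 100 μM risperidone, an antipsychotic of the benzisoxazole class. Per the study's methods, all cells had first received the hormone mixture MDI (isobutyl-methylxanthine, dexamethasone and insulin) and then insulin alone. Each treatment was sequenced as 2 mRNA libraries, with the RNA of 3 cultures of this single line combined in each, so that the p-values below measure the spread between pools and not between single cultures. The sample labels name the control cells as untreated, the tissue as embryonic and the extracted material as retina, and the study's own account of DMSO-treated 3T3-L1 cells was followed.

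Cholesterol is built from acetyl-CoA. The mevalonate steps give the isoprenoid farnesyl diphosphate, the squalene steps join and close it to lanosterol, and a series of late steps trims lanosterol to cholesterol. When sterol in the endoplasmic reticulum is low, the escort protein SCAP carries the transcription factor SREBP2 to the Golgi for cleavage, and INSIG proteins hold both back when sterol is high. The liver X receptors act on surplus sterol by raising exporters of the ABC family. Some cationic amphiphilic drugs, a class that includes antipsychotics, are known to inhibit late sterol enzymes. Transcript levels, which are what was measured here, report neither enzyme activity nor sterol content.

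The libraries held between 15883712 and 16374119 estimated counts on 13810 to 14657 genes, and a count of 0 at this depth allows up to 3 counts, or 0.183 to 0.189 CPM, for counting error only. Of the 14 adipocyte markers examined, 8 lay under 1 FPKM (fragments scaled to gene length and to mapped library depth) in every library, among them Adipoq, Cebpa, Cidec, Lep, Retn, Cfd and Slc2a4, which mark mature fat cells. The other 6 were present, with 59.5 to 169 FPKM for Fabp4, 54.9 to 62.8 for Pnpla2, 22.01 to 44.53 for Plin4, 11.4 to 12.8 for Pparg, 3.17 to 7.88 for Lipe and 1.04 to 1.66 for Cd36. The summed level of the 14 markers was 252 and 292 FPKM with DMSO and 162 and 179 FPKM with risperidone, and that of 7 preadipocyte and fibroblast markers was 588 and 582 FPKM against 944 and 914 FPKM. With DMSO the adipocyte sum was mostly Fabp4 (130 and 169 FPKM, against 59.5 and 71.2 with risperidone). Of its 6 tested genes, Fabp4, Plin4 and Lipe were called lower, Pnpla2 was called higher, and Pparg and Cd36 were not called. The preadipocyte and fibroblast sum was mostly Col1a1 (380 and 368 FPKM against 715 and 674). Of its 7 genes 4 were called higher (Col1a1, Dlk1, Thy1 and Ly6a), Col3a1 and Pdgfrb were lower, and Pdgfra was not called. The label of differentiated adipocytes thus met a marker list of which some genes were present and others, Adipoq among them, were near 0. All 18 kidney tubule markers were highest in risperidone replicate 2, where they summed to 253 FPKM against 2.39 to 3.95 FPKM in the other libraries, and the 6 retina markers in the table lay under 1 FPKM in every library. The part of these cell types in the results below was not tested, and each member whose call or direction changed without risperidone replicate 2 is given with its value. In bulk RNA, fewer cells of a type and less RNA per cell cannot be told apart.

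Promoter sequences show what the members share beyond their role. RefSeq promoter sequences on build GRCm38.p6, the build named in the submitters' processing notes, were found for 22 of the 28 genes, and the 250 bases before each start site were searched on both strands for the letters CCAAT (the NF-Y box), CACGTG (an E-box), TCACNCCAC (a form of the sterol regulatory element, SRE), GGGCGG (a GC box) and the DR4 element, a repeat of AGGTCA after a gap of 4 bases. The CCAAT letters were found upstream of 19 of the 22 genes, against 41.5% of the 8329 tested genes that had a promoter sequence and 33.8% of all 32851 promoters. They lay upstream of 6 of 6 searched genes called higher after risperidone, 3 of 5 called lower and 10 of 11 with no call. Fdps, Fdft1, Sqle, Stard4 and Scarb1, also called higher, had no promoter sequence and were not searched. Every tested member called lower or not called had one, so the shares of the call groups are not equally complete. The E-box letters were upstream of 6 of the 22 genes against 10.2% of the tested genes, and the GC box letters upstream of 20 against 66.3%. The SRE letters in this strict form were upstream of Hmgcs1 alone, against 1.14% of the tested genes, and the DR4 letters upstream of none of the 22. These letters are descriptions and not binding sites. Shown here are the 6 genes called higher that had a sequence, then Hmgcs1, which holds the SRE letters, and Scap, a gene called lower without the CCAAT letters. Each run is written 5′ to 3′ on the gene's strand and ends at the base before the start site, with the letters of the NF-Y box, the E-box and the SRE in capitals on either strand.
Mvk, chr5:114444019-114444268, plus strand: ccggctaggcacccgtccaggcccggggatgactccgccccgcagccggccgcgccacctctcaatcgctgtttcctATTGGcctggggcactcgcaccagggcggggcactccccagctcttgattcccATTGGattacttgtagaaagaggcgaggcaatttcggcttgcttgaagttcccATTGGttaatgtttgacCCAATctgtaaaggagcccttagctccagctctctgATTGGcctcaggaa
Idi1, chr13:8885356-8885605, plus strand: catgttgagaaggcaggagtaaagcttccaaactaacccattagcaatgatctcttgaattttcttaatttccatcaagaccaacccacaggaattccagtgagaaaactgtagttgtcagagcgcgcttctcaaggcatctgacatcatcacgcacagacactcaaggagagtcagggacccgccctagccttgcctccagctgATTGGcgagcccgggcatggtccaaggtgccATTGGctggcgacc
Cyp51, chr5:4104698-4104947, minus strand: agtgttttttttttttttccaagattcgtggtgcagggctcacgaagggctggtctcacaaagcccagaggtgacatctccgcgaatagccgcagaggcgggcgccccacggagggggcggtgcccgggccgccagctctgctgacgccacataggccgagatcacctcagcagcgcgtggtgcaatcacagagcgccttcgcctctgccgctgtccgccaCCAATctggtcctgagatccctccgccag
Sc5d, chr9:42264301-42264550, minus strand: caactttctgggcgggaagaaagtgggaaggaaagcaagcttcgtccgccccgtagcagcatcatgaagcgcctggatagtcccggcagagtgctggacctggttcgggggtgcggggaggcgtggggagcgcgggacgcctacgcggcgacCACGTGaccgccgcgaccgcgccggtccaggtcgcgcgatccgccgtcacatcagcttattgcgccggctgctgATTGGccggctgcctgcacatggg
Insig1, chr5:28071162-28071411, plus strand: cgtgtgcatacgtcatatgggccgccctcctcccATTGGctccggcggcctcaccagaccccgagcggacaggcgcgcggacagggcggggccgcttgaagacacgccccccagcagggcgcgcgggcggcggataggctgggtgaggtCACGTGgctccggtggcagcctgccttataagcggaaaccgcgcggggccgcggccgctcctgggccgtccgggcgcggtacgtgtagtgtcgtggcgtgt
Srebf2, chr15:82147019-82147268, plus strand: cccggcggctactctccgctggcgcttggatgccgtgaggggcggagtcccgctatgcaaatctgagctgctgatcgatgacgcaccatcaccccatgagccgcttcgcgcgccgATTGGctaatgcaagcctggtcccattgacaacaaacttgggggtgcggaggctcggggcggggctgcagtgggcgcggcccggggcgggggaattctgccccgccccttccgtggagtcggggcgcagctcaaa
Hmgcs1, chr13:119690101-119690350, plus strand: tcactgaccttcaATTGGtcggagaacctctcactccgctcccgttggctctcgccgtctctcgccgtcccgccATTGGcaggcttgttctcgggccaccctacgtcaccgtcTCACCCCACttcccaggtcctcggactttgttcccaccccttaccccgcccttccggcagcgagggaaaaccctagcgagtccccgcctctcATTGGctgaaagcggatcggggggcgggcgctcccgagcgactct
Scap, chr9:110333106-110333355, plus strand: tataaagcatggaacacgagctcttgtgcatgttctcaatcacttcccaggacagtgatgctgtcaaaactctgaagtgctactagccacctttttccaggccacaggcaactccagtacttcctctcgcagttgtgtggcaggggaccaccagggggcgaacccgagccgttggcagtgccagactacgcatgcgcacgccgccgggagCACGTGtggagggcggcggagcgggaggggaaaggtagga

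**Figure D1:**
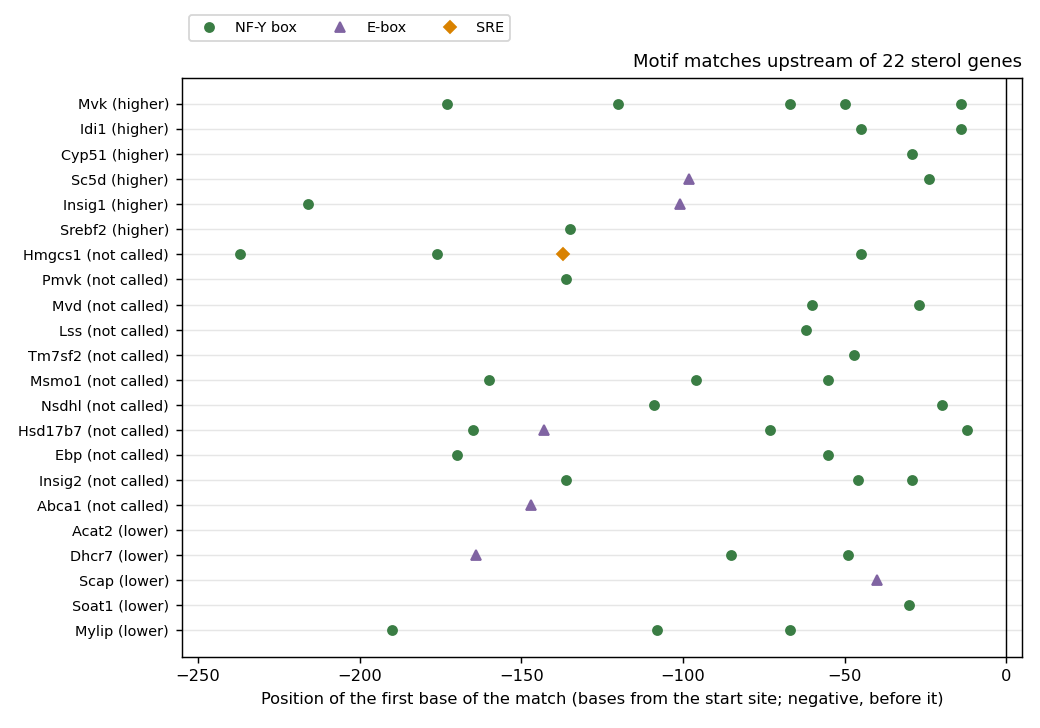
Position of motif matches in the 250 bases before the start sites of 22 sterol genes, with the distance from the start site in bases on the horizontal axis and 1 gene per line (circles, NF-Y box; triangles, E-box; diamond, SRE), grouped by its call after risperidone (matches upstream of any of a gene's start sites are shown). CCAAT matches were found upstream of 19 genes in all 3 call groups, and the single SRE match belonged to Hmgcs1.

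Risperidone raised 11 and lowered 5 of the 27 sterol genes that could be tested, and no change reached 1 on the log2 scale. Estimated counts were compared with edgeR's quasi-likelihood test, two-sided, over the 10243 genes that averaged 1 FPKM or more, and a gene was called at a Benjamini-Hochberg adjusted p under 0.05. SE below is the standard error of a log2 fold change. Abcg1 was the 1 member under that limit. Across all tested genes 64.3% were called, 32.1% higher and 32.2% lower (67.5% at an unadjusted p under 0.05), so the members' 59.3% called was near the background, while 40.7% were higher and 18.5% lower. The median log2 fold change (risperidone over DMSO) of the members was 0.17 against 0.00 for all tested genes. No trait of the list follows from these shares alone, since the list was written with earlier results of these data in view. The FPKM values of both treatments did not overlap for 22 members, and over all tested genes this held for 82.2%. Called changes of 0.5 or more on the log2 scale were seen in 4 higher members and 1 lower member, or 18.5% of the tested members, against 27.7% of all tested genes. The largest member change was 0.84 on the log2 scale, whereas 6.52% of tested genes were called with a change of 1 or more in either direction. On deposited TPM (length-scaled values with the same total in every library), which lowered the median of all genes by 0.22 on the log2 scale, limma called 5 members higher and 9 lower, and 1396 genes higher and 5089 lower in all, in place of 3287 and 3303 by edgeR. With library size as the only scaling, edgeR called 10 members higher and 6 lower, against 2500 and 4092 of all genes, and limma on log2(FPKM + 1) called 10 and 5, against 2306 and 3893.

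**Figure D2:**
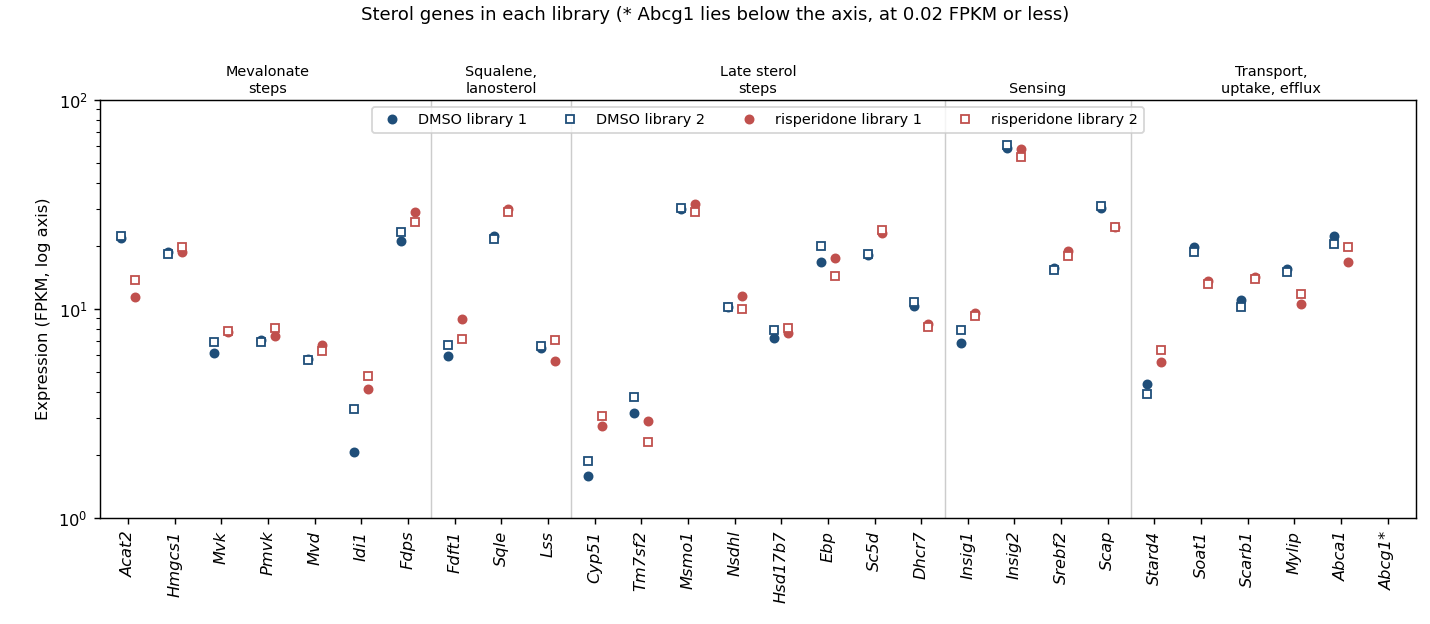
Expression of the 28 sterol genes in each of the 4 libraries, in FPKM on a log axis, in pathway order, with DMSO in blue, risperidone in red, replicate 1 as filled circles and replicate 2 as open squares. Insig2 was the highest at 53.5 to 61.0 FPKM, and the libraries of Idi1, Cyp51 and Sqle separated by treatment, with risperidone above.

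Levels can be compared between genes only per length, and in FPKM the members covered a wide range. Insig2 had the highest mean over the 4 libraries (57.8 FPKM), followed by Msmo1 (30.4), Scap (27.7), Sqle (25.8) and Fdps (24.9). The order below Insig2 differed by treatment, and with DMSO Scap (30.7 FPKM) and Msmo1 (30.3), like Fdps (22.1), Acat2 (22.05) and Sqle (21.9), were close together. Sc5d, Abca1 and Hmgcs1 came next, at 20.8, 19.8 and 18.9 FPKM, and Abca1 and Hmgcs1 did not differ beyond their spread, with values of 16.7 to 22.3 and 18.3 to 19.7 FPKM. The lowest tested members were Cyp51, Tm7sf2 and Idi1, at 2.32, 3.05 and 3.58 FPKM over the 4 libraries. Cyp51 was the lowest of them with DMSO, and Tm7sf2 with risperidone (2.62 against 2.91 FPKM for Cyp51). The spread between libraries of a treatment had a median coefficient of variation of 3.01% with DMSO and 6.27% with risperidone over the tested members, against 3.34% and 4.48% over all tested genes. It was widest for Idi1 with DMSO (32.8%) and for Tm7sf2 with risperidone (16.5%).

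Of the 7 mevalonate genes, 3 rose, 1 fell and 3 were not called, with a median log2 fold change of 0.28. Beside these and the following counts by role stand the 32.1% higher and 32.2% lower over all tested genes, and no role was tested as a group. Idi1, whose isomerase interconverts both 5-carbon isoprenoid units, had 2.07 and 3.32 FPKM with DMSO and 4.16 and 4.77 FPKM with risperidone. All risperidone values lay above the DMSO values, but the DMSO libraries themselves lay far apart. This gave a log2 fold change of 0.82 (SE 0.196, edgeR adjusted p = 0.00344), or 1.77-fold, and it was 0.53 without DMSO replicate 1 and 1.20 without DMSO replicate 2. Idi1 counts were fractional in all 4 libraries, so some reads were divided between features that were not identified here, and its paralog Idi2 had only 2 to 16 counts. Fdps, the synthase of farnesyl diphosphate, rose from 21.1 and 23.2 FPKM to 29.1 and 26.0 FPKM, a log2 fold change of 0.45 (SE 0.0802, edgeR adjusted p = 0.000525). Mvk, the kinase of mevalonate, went from 6.17 and 6.97 FPKM to 7.71 and 7.87 FPKM. For Mvk the log2 fold change was 0.35 (SE 0.129, edgeR adjusted p = 0.0326), and the call was lost without DMSO replicate 1 (0.27, adjusted p = 0.250) and without DMSO replicate 2 (0.44, adjusted p = 0.0629). Among the alternatives, DESeq2, library size as the only scaling and length offsets also lost it, as did limma on log2(FPKM + 0.1) and on TPM.

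Acat2, the cytosolic thiolase that joins acetyl-CoA units at the start of the pathway, was the member that fell most. It had 21.8 and 22.3 FPKM with DMSO and 11.4 and 13.7 FPKM with risperidone, with no overlap. Its log2 fold change was -0.72 (SE 0.0787, edgeR adjusted p = 1.55e-05), which put it at 0.608 of the DMSO level. Its counts were fractional in all 4 libraries, and Acat3, its paralog, had 1.08 to 4.81 counts, far fewer than the 359 to 692 of Acat2. The next gene in the pathway, Hmgcs1, which makes HMG-CoA and whose promoter holds the SRE letters shown above, had 18.8 and 18.3 FPKM with DMSO and 18.8 and 19.7 FPKM with risperidone, barely apart. The log2 fold change of 0.15 was not past the threshold (SE 0.0623, edgeR adjusted p = 0.0525), although it was without risperidone replicate 1 (0.18, adjusted p = 0.0223) and with offsets for gene length (0.20, adjusted p = 0.0122), and on TPM its sign turned (-0.08). Pmvk and Mvd, the kinase and decarboxylase that follow mevalonate kinase, had log2 fold changes of 0.25 (edgeR adjusted p = 0.150) and 0.28 (adjusted p = 0.0835), on only 116 to 178 counts per library. The summed level of the 7 genes was 82.6 and 86.7 FPKM with DMSO and 85.3 and 86.5 FPKM with risperidone, which overlapped. The summed FPKM of all genes was itself higher with risperidone (546060 and 525450) than with DMSO (482770 and 487210). Sums of FPKM, here and for the other groups, are thus not on a common total. Their overlap need not hold on TPM, whose totals are equal.

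Of the 3 squalene and lanosterol genes, 2 rose, against 32.1% of all tested genes. Sqle, the squalene monooxygenase and a slow step of the pathway, rose from 22.3 and 21.6 FPKM to 30.2 and 29.1 FPKM. Both risperidone libraries lay well above both DMSO libraries, and the log2 fold change was 0.53 (SE 0.0624, edgeR adjusted p = 2.65e-05), or 1.44-fold. Without any 1 library the log2 fold change of Sqle stayed between 0.50 and 0.56. Fdft1, which joins farnesyl units into squalene, went from 5.94 and 6.69 FPKM to 8.91 and 7.21 FPKM, with a log2 fold change of 0.44 (SE 0.103, edgeR adjusted p = 0.00302). Its higher value rested more on risperidone replicate 1, without which the log2 fold change was 0.28 (edgeR adjusted p = 0.0256), and it was no longer called by limma on log2(FPKM + 1) (0.30, adjusted p = 0.0567). Fdft1 overlaps Ctsb in RefSeq, a far more abundant gene with 18507 to 24427 counts that also rose (log2 fold change 0.42), and its counts were fractional in 3 of the 4 libraries, so that reads of this pair may not be fully told apart. Lss, the cyclase that forms lanosterol, had 6.53 and 6.64 FPKM with DMSO and 5.66 and 7.11 FPKM with risperidone, so the DMSO values lay between those of risperidone. Lss had a log2 fold change of 0.02 (SE 0.0666, edgeR adjusted p = 0.762). The summed level of the 3 genes was 34.8 and 34.9 FPKM with DMSO and 44.8 and 43.4 FPKM with risperidone.

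The late sterol steps were mixed, with 2 of 8 genes higher, 1 lower and 5 not called (64.3% of all tested genes were called), and a median log2 fold change of 0.13 against 0.32 for the 10 genes up to lanosterol. The ranges of both groups overlapped widely, from -0.31 to 0.84 and from -0.72 to 0.82. Cyp51, the demethylase that acts first on lanosterol, rose from 1.59 and 1.88 FPKM to 2.74 and 3.08 FPKM. The risperidone values did not overlap those of DMSO, and the log2 fold change was 0.84 (SE 0.146, edgeR adjusted p = 0.000445), or 1.79-fold, on 110 to 208 counts per library. It was the largest member increase in the main fit, but within the SE of the 0.82 of Idi1. On TPM Idi1 was ahead (0.53 against 0.49). Sc5d, the desaturase of the penultimate stage, rose from 18.1 and 18.2 FPKM to 23.0 and 23.9 FPKM, with a log2 fold change of 0.48 (SE 0.0633, edgeR adjusted p = 5.72e-05). Its leave-one-out values stayed between 0.46 and 0.51, a narrow range beside the change. Dhcr7, the reductase that ends the route through 7-dehydrocholesterol, went the other way, from 10.3 and 10.8 FPKM to 8.49 and 8.17 FPKM.

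The log2 fold change of Dhcr7 was -0.22 (SE 0.0800, edgeR adjusted p = 0.0293). Its call was lost without DMSO replicate 1 (-0.26, adjusted p = 0.109), without DMSO replicate 2 (-0.19, adjusted p = 0.286), without risperidone replicate 2 (-0.20, adjusted p = 0.0904) and by DESeq2 (-0.22, adjusted p = 0.199). Thus Sc5d and Dhcr7, which act in succession, moved in opposite directions in the fit over all libraries. Msmo1, the methyl oxidase of C-4 that was the most abundant late enzyme, had 30.2 and 30.4 FPKM with DMSO and 31.9 and 29.1 FPKM with risperidone, so the treatments overlapped. Without risperidone replicate 2, which is the library with kidney transcripts, Msmo1 passed the threshold (0.18, edgeR adjusted p = 0.0265), and so did Nsdhl, its partner in C-4 demethylation (0.28, adjusted p = 0.0201). With all libraries these were at 0.11 (edgeR adjusted p = 0.193) and 0.17 (adjusted p = 0.109), and without risperidone replicate 1 they were at 0.03 (adjusted p = 0.689) and 0.06 (adjusted p = 0.587). Hsd17b7, the ketoreductase of the same complex, had 7.25 and 7.96 FPKM with DMSO and 7.67 and 8.13 FPKM with risperidone, with a log2 fold change of 0.15 (edgeR adjusted p = 0.0635) that was called without DMSO replicate 2 (0.22, adjusted p = 0.0371) and with length offsets (0.23, adjusted p = 0.00689), and that was 0.09 (adjusted p = 0.398) without DMSO replicate 1. Direction on TPM was negative for Msmo1, Nsdhl and Hsd17b7.

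Ebp, the sterol isomerase that many cationic amphiphilic drugs bind, had 16.8 and 20.1 FPKM with DMSO and 17.5 and 14.3 FPKM with risperidone. The values overlapped, and its log2 fold change of -0.11 (SE 0.106, edgeR adjusted p = 0.373) turned to 0.02 without DMSO replicate 2 and to 0.03 without risperidone replicate 2, while without risperidone replicate 1 it was called lower (-0.27, adjusted p = 0.0436). Tm7sf2, a sterol reductase of C-14, had 3.18 and 3.79 FPKM against 2.92 and 2.31 FPKM. Every risperidone value lay below every DMSO value, but on 50 to 81 counts per library its log2 fold change was -0.31 (SE 0.211, edgeR adjusted p = 0.215). With 1 library left out it ranged from -0.49 to -0.15, the smallest size being that without risperidone replicate 2, and it was -0.18 without DMSO replicate 2. Tm7sf2 overlaps Vps51 in RefSeq, which had 347 to 378 counts. The late steps summed to 97.7 and 103 FPKM with DMSO and to 106 and 98.9 FPKM with risperidone. These sums overlapped in FPKM, whose total over all genes was higher with risperidone.

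**Figure D3:**
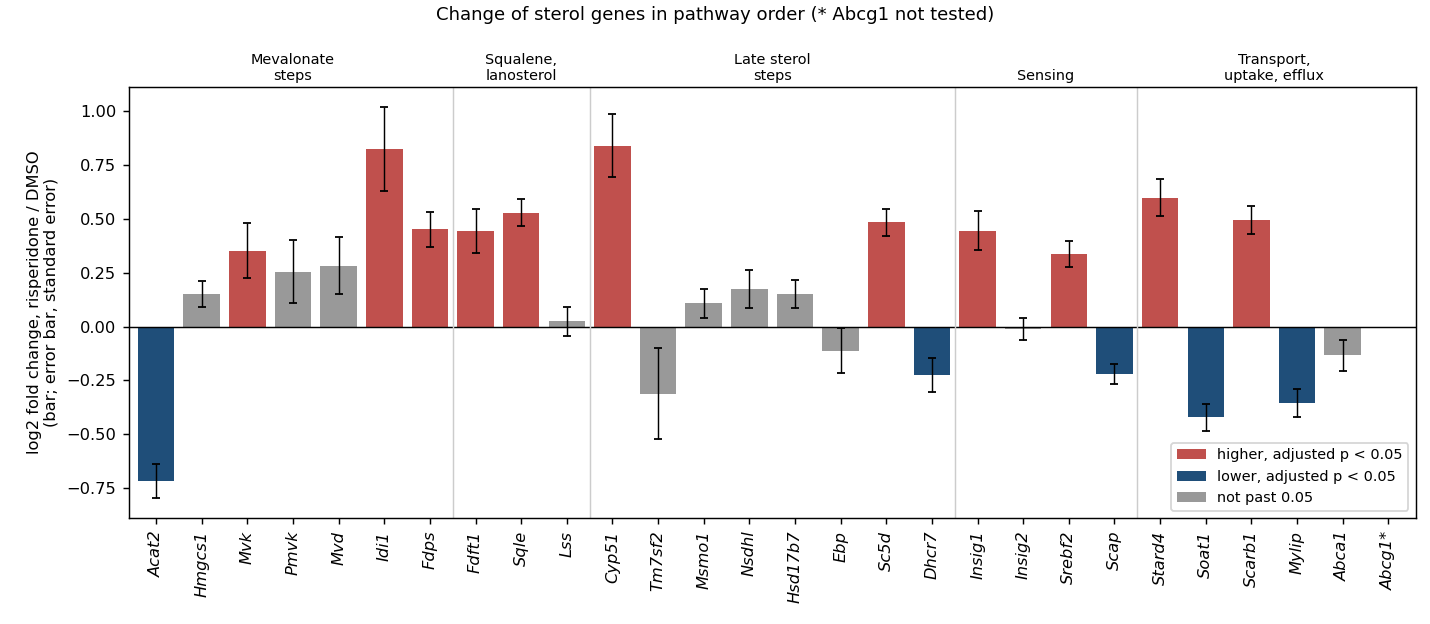
Log2 fold change of each sterol gene, risperidone over DMSO, from edgeR (bars, with the standard error as error bars) in pathway order, with 11 genes higher in red, 5 lower in blue and 11 not past an adjusted p of 0.05 in grey. Cyp51 (0.84) and Idi1 (0.82) rose most and Acat2 (-0.72) fell most.

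Among the sensing genes, Insig1 and Srebf2 rose, Scap fell and Insig2 was not called. Insig1, which retains the SCAP and SREBP complex and is itself an SREBP target, had 6.85 and 7.89 FPKM with DMSO and 9.51 and 9.26 FPKM with risperidone. Its log2 fold change was 0.45 (SE 0.0897, edgeR adjusted p = 0.00122), or 1.36-fold, with both risperidone libraries above both DMSO libraries. Insig2, its paralog, was far more abundant, with means of 57.8 against 8.38 FPKM over the 4 libraries. The log2 fold change of Insig2 was -0.01 (SE 0.0519, edgeR adjusted p = 0.848), and its sign turned without DMSO replicate 2 (0.01) or risperidone replicate 2 (0.04). Srebf2, which encodes SREBP2, rose from 15.8 and 15.4 FPKM to 18.9 and 17.9 FPKM, a log2 fold change of 0.34 (SE 0.0612, edgeR adjusted p = 0.000602). Scap fell from 30.3 and 31.1 FPKM to 24.7 FPKM in both risperidone libraries. The log2 fold change of Scap was -0.22 (SE 0.0468, edgeR adjusted p = 0.00177), and without DMSO replicate 2 it was -0.20 with an adjusted p of 0.0591. The pair of genes for the factor and its escort thus changed in opposite directions.

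In the transport, uptake and efflux group, Stard4 and Scarb1 rose, Soat1 and Mylip fell, Abca1 was not called and Abcg1 was under the limit for testing. Stard4, a soluble sterol carrier, rose from 4.38 and 3.92 FPKM to 5.59 and 6.34 FPKM, with no overlap and a log2 fold change of 0.60 (SE 0.0858, edgeR adjusted p = 0.000112). Scarb1, the receptor for high-density lipoprotein that passes cholesterol across the surface, rose from 11.1 and 10.3 FPKM to 14.3 and 13.9 FPKM. For Scarb1 the log2 fold change was 0.49 (SE 0.0651, edgeR adjusted p = 6.01e-05), or 1.41-fold. Soat1, which esterifies cholesterol for storage in droplets, fell from 19.7 and 18.7 FPKM to 13.6 and 13.2 FPKM. Its log2 fold change of -0.42 (SE 0.0618, edgeR adjusted p = 0.000132) left it at 0.747 of the DMSO level, and both treatments kept well apart.

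Mylip, a ubiquitin ligase that targets lipoprotein receptors and is induced by the liver X receptors, fell from 15.6 and 15 FPKM to 10.6 and 11.8 FPKM. Mylip had a log2 fold change of -0.36 (SE 0.0650, edgeR adjusted p = 0.000626). Abca1, the exporter that loads cholesterol on apolipoprotein and another target of the liver X receptors, had 22.3 and 20.4 FPKM with DMSO and 16.7 and 19.8 FPKM with risperidone. The treatments did not overlap, but the gap between the nearest libraries was small beside the spread with risperidone, and the log2 fold change was -0.13 (SE 0.0728, edgeR adjusted p = 0.131). Abca1 was called lower without DMSO replicate 2 (-0.20, adjusted p = 0.0460) and without risperidone replicate 2 (-0.25, adjusted p = 0.00192), with library size as the only scaling (-0.23, adjusted p = 0.0222) and by limma on TPM (-0.36, adjusted p = 0.0397). It was at -0.02 (edgeR adjusted p = 0.768) without risperidone replicate 1 and at -0.06 (adjusted p = 0.529) without DMSO replicate 1. With offsets for gene length, for a gene length of 10124 bases implied by counts and FPKM, it was at 0.02. Abcg1, the partner exporter, had 1 and 0 counts with DMSO and 1 and 2 with risperidone, all at or under the limit of 3 counts, so no fold is given.

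**Figure D4:**
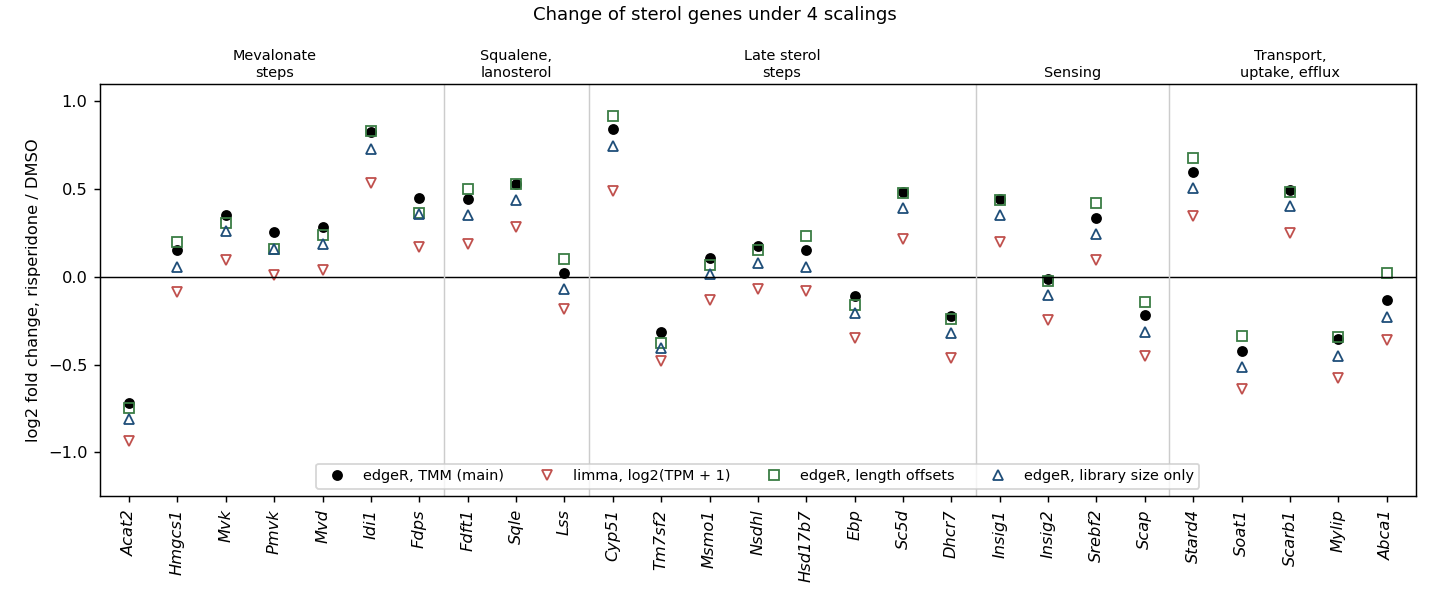
Log2 fold change of the 27 tested sterol genes, risperidone over DMSO, under 4 scalings (edgeR with TMM, edgeR with library size only, edgeR with length offsets, limma on TPM). Values on TPM were the lowest of the 4 for all 27 genes, and the 16 called genes kept their sign under all 4.

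Calls of the members differed in how far they held over the 14 alternatives. Acat2, Sqle, Sc5d, Stard4, Soat1, Scarb1 and Mylip were called in 14 of 14, and Cyp51 in all 13 of those in which its level passed the filter. Fdps, Insig1 and Srebf2 were called in 13 of 14, and on TPM their calls were lost, where their log2 fold changes were 0.17, 0.20 and 0.10. Scap was called in 13 of 14, Fdft1 in 11 of 14, Idi1 in 11 of 13, Mvk in 7 of 14 and Dhcr7 in 10 of 14. All 16 called genes kept their direction in each of these alternatives. On TPM limma also called 4 members lower that the main edgeR fit had not, namely Tm7sf2 (-0.48, adjusted p = 0.0147), Ebp (-0.35, adjusted p = 0.0488), Insig2 (-0.25, adjusted p = 0.0188) and Abca1.

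A further 58 sterol genes found in the table, listed by role from general knowledge, were examined in the same fit. Of the 48 that could be tested, 17 were higher, 17 lower and 14 not called, and their median log2 fold change was 0.07. Over all tested genes 32.1% were higher and 32.2% lower, so these shares were near the background. These counts were 12 and 21 with library size as the only scaling, 11 and 21 by limma on log2(FPKM + 1), 11 and 19 on log2(FPKM + 0.1), and 8 and 21 on TPM, whereas edgeR with length offsets gave 24 and 16. For the named genes of this list up to 3 of the largest called changes of each role were taken.

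In SREBP processing and sterol-regulated degradation, 6 of 9 genes fell and 1 rose, against 32.2% lower and 32.1% higher over all tested genes. The groups by role are small, and none was tested as a group. Srebf1, which encodes the SREBP1 forms that drive fatty acid synthesis, fell from 13.9 FPKM in both DMSO libraries to 10.6 and 9.65 FPKM, a log2 fold change of -0.36 (edgeR adjusted p = 0.000858). Its direction was thus opposite to that of Srebf2. Erlin2, a lipid raft protein of the endoplasmic reticulum, had a similar log2 fold change of -0.37. Mbtps1 and Mbtps2, the proteases that cleave SREBP in turn, had log2 fold changes of -0.35 and 0.21, and were named after their values were seen.

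Among genes of sterol reduction and electron supply, Por, the reductase that feeds electrons to CYP51 and squalene monooxygenase, rose from 96.8 and 95.6 FPKM to 163 and 159 FPKM, and its log2 fold change of 0.84 (edgeR adjusted p = 1.41e-07) equalled that of Cyp51 at a far higher level. Tmem97, a sterol-binding protein, rose by 0.80 (SE 0.104, edgeR adjusted p = 5.54e-05), from 10.7 and 11.2 FPKM to 18.8 and 16.7 FPKM. The group had 2 genes higher, 3 lower and 2 not called.

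Of 13 tested genes of intracellular sterol transport, 6 rose and 4 fell (32.1% and 32.2% over all tested genes), and close relatives moved apart. Gramd1a, a sterol carrier at contacts of the endoplasmic reticulum and the plasma membrane, rose from 26.8 and 28.8 FPKM to 54.6 and 47.3 FPKM (log2 fold change 0.97, edgeR adjusted p = 1.01e-06). Its paralog Gramd1b fell from 11.7 and 11.6 FPKM to 7.50 and 7.99 FPKM (-0.78, adjusted p = 2.77e-06). Osbpl9, a carrier of the oxysterol-binding family, rose by 0.65 on the log2 scale. For uptake, Vldlr, a receptor for lipoproteins rich in triglyceride, fell from 39.2 and 38.1 FPKM to 21.7 and 24.9 FPKM (-0.65, edgeR adjusted p = 1.34e-06), and Sort1, a sorting receptor, fell by 0.20, while the other 3 tested genes of that role were not called. Lrp8, a receptor of the same family as Vldlr, averaged under 1 FPKM and was not tested, with 58 and 40 counts with DMSO and 151 and 146 with risperidone. These treatments did not overlap.

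Of the 5 tested genes of liver X receptors, efflux and ester hydrolysis, 4 rose and the other was not called, against 32.1% higher over all tested genes. Nceh1, a hydrolase of cholesterol esters and so opposite in action to Soat1, had a log2 fold change of 0.57 (edgeR adjusted p = 2.70e-05). Abca7 and Abca5, transporters of the ABC family, were at 0.42 and 0.23. In FPKM the treatments overlapped for Abca5, with 7.47 and 6.97 with DMSO and 7.03 and 7.93 with risperidone. Nr1h3, which encodes the liver X receptor alpha, averaged under 1 FPKM and was not tested, with 38 and 26 counts with DMSO and 10 and 19 with risperidone, which did not overlap. In the isoprenoid branch, Ggps1, which extends farnesyl diphosphate to the geranylgeranyl unit, fell by 0.60, whereas Nus1 and Dhdds, the subunits that make dolichol from the same precursor, rose by 0.59 and 0.30. Cyp46a1 and Cyp39a1, hydroxylases that form or act on oxysterols, were at 0.62 and 0.36, and Hsd3b7, an enzyme of bile acid synthesis, at -0.58, all called at levels under 6 FPKM.

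**Figure D5:**
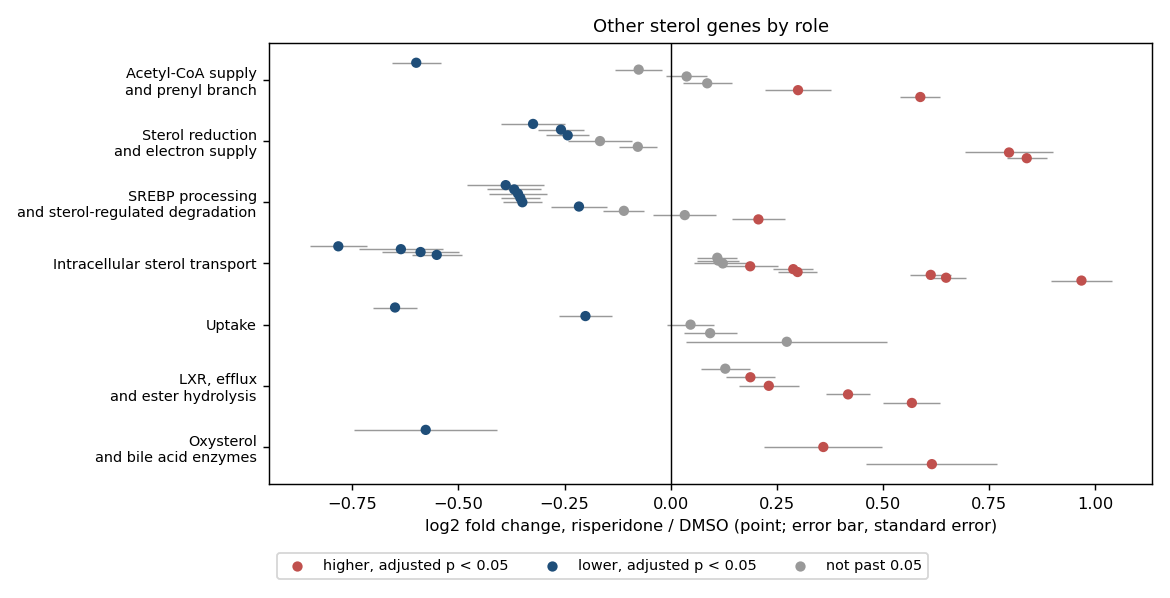
Log2 fold change of 48 other tested sterol genes, risperidone over DMSO, from edgeR (points, with the standard error as error bars) in rows by role, coloured by call. SREBP processing genes lay mostly below 0, with 6 of 9 lower, and sterol transport genes spread from -0.78 to 0.97.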

How the data were processed

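The analysis used mRNA sequencing of 3T3-L1 cells on MGISEQ-2000, with 2 DMSO and 2 risperidone libraries, each from 3 pooled cultures. Per the methods, reads with adaptors, poly-N or low quality were removed, and FPKM was computed on the DC.TOM platform. The submitters' processing notes name Bowtie2, RSEM, DESeq2 and GRCm38.p6, with versions not given in the sources used here. The authors deposited estimated counts (not all whole), FPKM and TPM per gene and library. Counts were rounded and not otherwise scaled, FPKM is per length and mapped fragments, and deposited TPM sums to the same total in each library. The authors' averages per treatment were not used. Genes that averaged 1 FPKM or more were tested with edgeR 4.0.16 in R 4.3.3 (quasi-likelihood F-test, TMM factors 0.963 to 1.03, biological coefficient of variation 0.0468), two-sided, with Benjamini-Hochberg adjustment and a threshold of 0.05. Each SE was derived from the fold change and its F statistic (absolute log2 value over root F). Alternatives used DESeq2 1.42.0, limma 3.58.1 with pseudocounts of 1 or 0.1, other filters and scalings, and offsets removing each library's trend with gene length, which was taken from the ratio of counts to FPKM. On simulated data with 200 changed genes among 10243, edgeR made 9 false calls. There it recovered 99% of changes of 1 and 84% of changes of 0.5 on the log2 scale. In the deposited data 6590 of the 10243 genes were called. The rate of recovery and of false calls with so many changed genes was not tested. The members, lists and tests were chosen with earlier results of these data known, and the kidney markers because earlier results had shown that signal. All members are named. Of the other sterol genes, up to 3 called genes per role with the largest absolute log2 fold change are named, except some that are not reported here, and Mbtps1, Mbtps2, Nr1h3 and Lrp8 were added after their values were seen. Symbols were matched by NCBI Gene identifier to RefSeq. Exact permutation of 2 against 2 libraries cannot go below p = 0.333, so none was used. Figures were drawn with Python 3.11.15 and matplotlib 3.10.9.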

Additional observations from a re-analysis of the deposited data

How the results depend on the processing

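The counts of members called, 11 higher and 5 lower, ranged from 10 to 13 and from 4 to 6 when 1 library was left out, and those of other sterol genes from 13 to 16 and from 14 to 18. A replicate block gave 12 and 5 members, adding Hmgcs1 (adjusted p = 0.0462 by edgeR) and changing no other member's call. Deviations of same-numbered libraries correlated at -0.105 over 10243 genes, so the numbers were not taken as pairs, and a crossed replicate block, added after the data were seen, gave 12 and 6 members and 20 and 18 other sterol genes. Requiring a change of 0.5 or more on the log2 scale left 4 and 1 members, 8 and 7 other sterol genes, and 1269 and 1565 of all genes. On TPM these counts were 5 and 9, 8 and 21, and 1396 and 5089, and by limma with FPKM pseudocounts of 1 and 0.1 the other sterol genes higher numbered 11 and 11. On TPM the sign turned for Hmgcs1 (-0.0844), Lss (-0.18), Msmo1 (-0.13), Nsdhl (-0.0671) and Hsd17b7 (-0.0818), none of them called in the main test. Lss also turned when only genes averaging 5 FPKM or more were tested (-0.0003), with library size only (-0.0689) and by limma on log2(FPKM + 1) (-0.0455) and log2(FPKM + 0.1) (-0.0528). Abca1 turned with length offsets (0.0232). With 1 library left out, Lss ranged from -0.0368 to 0.0838, turning without risperidone replicate 2, and Ebp from -0.2714 to 0.0334 and Insig2 from -0.071 to 0.0449, both turning without DMSO replicate 2 and without risperidone replicate 2. The cause of these changes was not tested. Abcg1, under the FPKM limit, had at most 2 counts in a library and Cyp51, Tm7sf2, Idi1, Mvk, Mvd and Pmvk had at most 209.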
